A study of Xenopus laevis with 12 samples.

Results

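Whole embryos of the frog Xenopus laevis treated with BIO were set against embryos treated with Chiron, over every gene of the deposited count table. The members were the 3 BIO and 3 Chiron libraries, 6 of the 12 libraries of the study, taken by their treatment labels. The other libraries were 3 from control embryos and 3 from embryos given genistein, a soy isoflavone. Every embryo was collected at stage 9.5, labelled early gastrula, and each library held RNA of 3 embryos. BIO is 6-bromoindirubin-3'-oxime, an oxime of the plant-derived indirubin scaffold, and Chiron is CHIR 99021, an aminopyrimidine. The study used both as established activators of Wnt signalling. No genetic alteration is given for any group. Doses, the time at which BIO or Chiron was added, the vehicle, and whether the replicates came from separate clutches are unstated in the sources used here. The doses therefore cannot be taken as matched. The p-values rest on the spread among these 6 libraries alone, and that spread may be technical.

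Both compounds inhibit the kinase GSK3, which in resting cells marks beta-catenin for destruction. When GSK3 is blocked, beta-catenin accumulates, enters the nucleus and switches on target genes together with TCF factors. In the frog blastula this signal normally acts on the dorsal side, where it turns on siamois and nodal3 genes and sets up the organizer, the signalling centre that secretes BMP antagonists. Later Wnt signals and BMP pattern the ventral and lateral mesoderm, and Nodal ligands induce mesoderm and endoderm. Indirubins are also known, from mammalian cells, as ligands of the aryl hydrocarbon receptor. The comparison asks which genes differed between a pair of inhibitors that share this target.

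The libraries held 13666222, 14593536 and 14090722 counts in BIO and 15486533, 15122188 and 14380286 in Chiron. Mitochondrially encoded transcripts took 0.553%, 2.66% and 0.841% of the counts in BIO and 0.999%, 1.4% and 1.62% in Chiron. BIO library 2 thus had the highest share, and it also stood at 37.8 on the first principal component of the 6 libraries (33.5% of the variance), against -14 to -0.793 in the other 5. In Chiron, library 2 was the lowest of the 6 for many mesendoderm and ventral genes, as given beside those genes. Control library 1, used below as background, had a mitochondrial share of 13.5%, against 0.946% and 4.23% in controls 2 and 3. Levels are in CPM, counts scaled to a common library size after correction for library composition. A count of 0 in one of these 6 libraries allows a level of up to 0.194 to 0.22 CPM (3 counts, for counting error only). Xenopus laevis carries an L and an S copy, or homeolog, of many genes, and reads shared between homeologs or tandem copies could be split by the counting.

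For most genes the BIO and Chiron libraries differed by little. Of 18518 genes tested, 0 were called higher in BIO (0%) and 2 lower (0.0108%) at an edgeR adjusted p under 0.05. At an unadjusted p under 0.05 there were 341 positive (1.84%) and 460 negative differences (2.48%), fewer than 1 in 20 in total, and DESeq2 called 19 genes higher (0.101%) and 29 lower (0.154%). In a fit that took its spread from all 12 libraries, 0 genes were called in either direction. The common biological coefficient of variation was 10.3% among the 6 libraries and 22.4% among the 12.

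The intervals bounded the differences closely for well-expressed genes. Of 14568 genes with a mean of at least 5 CPM, 14422 (99%) had an unadjusted 95% interval within 1 log2 unit of 0, that is within a 2-fold difference either way. The median distance from the estimate to the end of its interval was 0.228 log2. Only 20 of the 14568 (0.137%) had an estimate beyond 1 log2, 11 with BIO above Chiron and 9 below. The 11 comprised id3.L, id3.S, ventx1.L, ventx1.S, mixer.L, mixer.S, bix1.3.L, bix1.3.S, sp5.L, stard13.S and LOC121401725. The 9 comprised cxcr4.L, cxcr4.S, chrd.1.L, rasd1.S, rasl11b.L, znf750.L, gprc5cl2.S, LOC121395360 and ATP8. These 20 genes were singled out after their values were seen, and the copies of id3, ventx1, mixer, bix1, sp5, chrd and cxcr4 are described below by role.

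**Figure D1:**
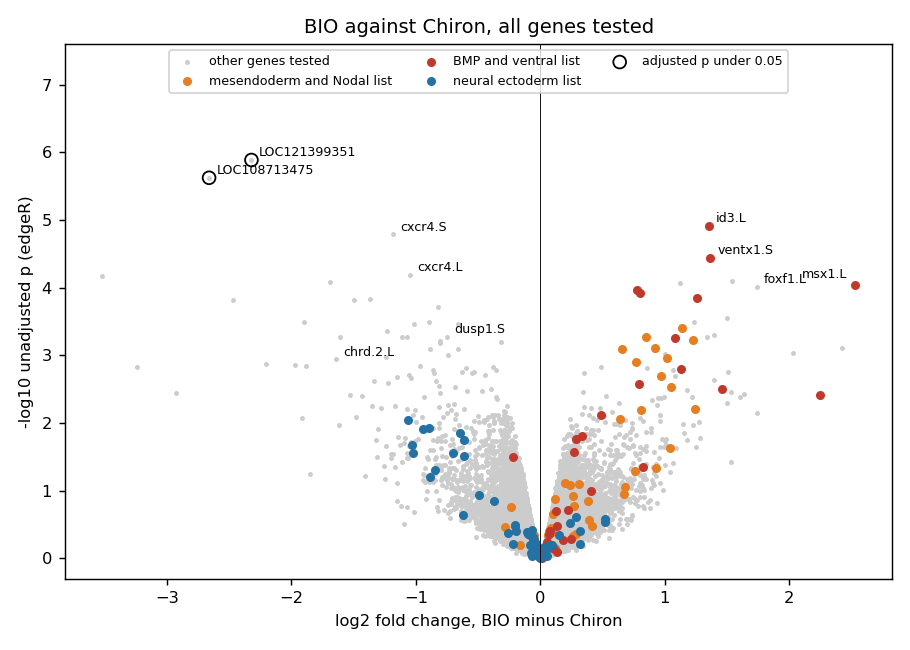
Each point is 1 of the 18518 genes tested, with the log2 fold change (BIO minus Chiron) on the x axis and -log10 of the unadjusted edgeR p on the y axis. The 2 circled genes passed the adjusted threshold, ventral and mesendoderm list members spread to the right, and neural list members spread to the left.

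Both genes called lower in BIO are listed in RefSeq as protein coding without a symbol. LOC108713475 was at 0.437, 0.549 and 0.713 CPM in BIO and 3.12, 3.88 and 3.91 CPM in Chiron, so the groups lay far apart. The difference was -2.66 ± 0.29 log2 (± SE, n = 3 libraries a group, as for all log2 values that follow), or 6.33-fold lower in BIO (edgeR adjusted p = 0.0221). Control embryos had 3.87, 1.204 and 1.35 CPM, between the groups or, in library 1, at the Chiron level. LOC121399351 was at 0.946, 0.961 and 0.784 CPM in BIO and 4.07, 4.82 and 4.68 CPM in Chiron, again without overlap, and was 4.997-fold lower in BIO (-2.32 ± 0.24 log2, edgeR adjusted p = 0.0221). Its control level of 2.81, 2.01 and 2.17 CPM lay between those of the compounds. Both calls were made again by DESeq2 (adjusted p = 6.22e-06 and 2.08e-06). Neither passed with limma-voom, where the smallest adjusted p was 0.0568, nor in 5 of the 6 fits that left out 1 library, where the smallest ranged from 0.0521 without Chiron 1 to 0.165 without BIO 1. Without BIO 2 both passed, among 3 genes higher (0.0161%) and 11 lower (0.0591%).

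For the siamois and nodal3 genes, the direct early read-out of the shared target was close to equal. The siamois gene sia1.L, a homeobox factor that beta-catenin switches on in the dorsal blastula, was at 49.05, 60.4 and 55.4 CPM in BIO and 52.2, 35 and 50.1 CPM in Chiron. The groups overlapped, and both stood above the controls at 13.7, 6.76 and 7.57 CPM. The difference between the compounds was 0.26 ± 0.14 log2, with a 95% interval of -0.05 to 0.58. Against control, sia1.L was higher by 2.59 ± 0.35 log2 in BIO (edgeR adjusted p = 0.0477 in the fit of 12 libraries) and by 2.33 ± 0.34 in Chiron (adjusted p = 0.0874), a pair of contrasts that share the 3 controls.

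The other siamois and nodal3 genes gave the same order of size. The paralog sia2.S was at 16.9, 16.96 and 18.1 CPM in BIO and 23.4, 17.3 and 20.9 CPM in Chiron, a difference of -0.25 log2 (-0.53 to 0.03). The Nodal-related ligand gene nodal3.1.L, a Wnt target of the organizer epithelium, was at 41.6, 52.2 and 45.3 CPM in BIO and 48.7, 37.7 and 51.2 CPM in Chiron, against 12.2, 5.42 and 10.04 CPM in control. Its estimate was 0.02 log2 with an interval of -0.26 to 0.29, so that a difference of 1 log2 lay outside it. For nodal3.2.L the levels were 19.21, 30.76 and 20.66 CPM in BIO and 28.81, 24.49 and 31.06 CPM in Chiron, and the estimate was -0.25 log2 (-0.63 to 0.12). Without BIO 2, its highest library in BIO, the estimate was -0.50 ± 0.12 log2 (edgeR adjusted p = 0.194). The groups then stood apart with BIO below, as they did for 12.9% of all genes. In the fit of 6 libraries, differences of 2-fold between the compounds were thus outside the interval for each of these 4 siamois and nodal3 genes.

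Of the 8 tested members of the early dorsal Wnt list, 0 were called, 2 had every BIO library above every Chiron library (25%, against 5.25% of all genes tested) and 1 had every one below (12.5%, against 4.4%). The pair with BIO above were nodal6.L at 21.1, 33.4 and 19.7 CPM in BIO and 17.6, 13.2 and 17.6 CPM in Chiron and nodal5.2.L at 9.75, 11.5 and 8.62 CPM in BIO and 7.19, 4.95 and 7.68 CPM in Chiron. These encode Nodal ligands whose early expression needs both the maternal factor VegT and beta-catenin. The S copy, nodal6.S, went the other way, at 6.404, 5.36 and 5.49 CPM in BIO and 6.87, 6.83 and 7.19 CPM in Chiron. The list median was 0.14 log2, against 0.01 over all genes tested.

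**Figure D2:**
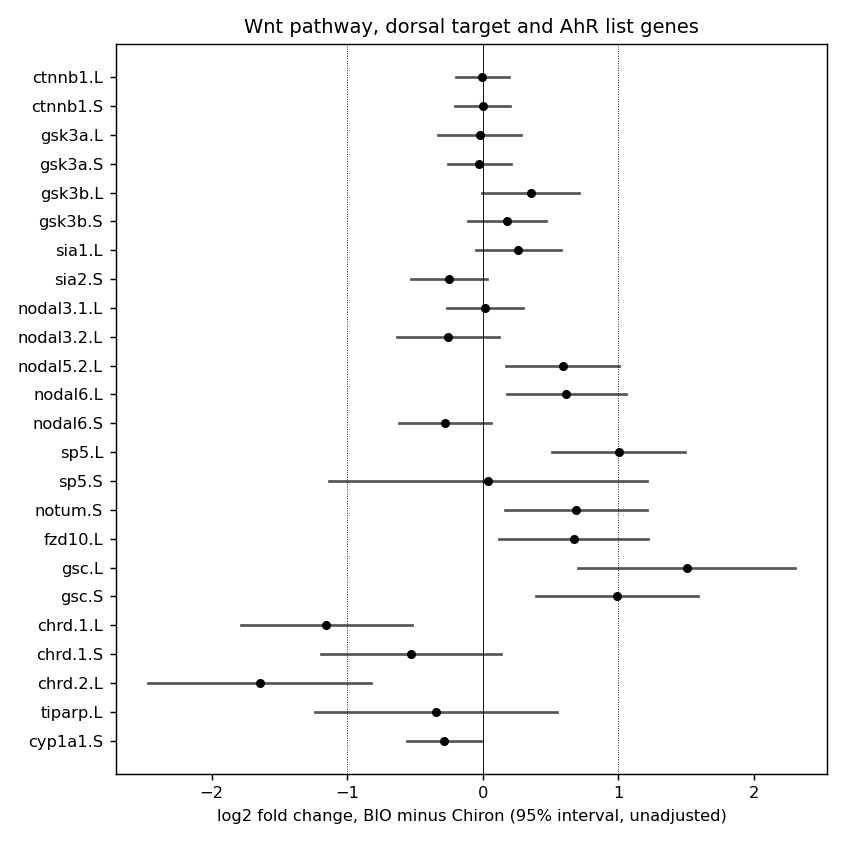
Points give the log2 fold change (BIO minus Chiron) and lines its unadjusted 95% interval for Wnt pathway genes, dorsal targets, organizer genes and genes of the aryl hydrocarbon receptor (AhR) list. Dotted lines mark a 2-fold difference. The intervals of ctnnb1, gsk3a, sia1.L, sia2.S and nodal3 lie inside the dotted lines. The estimates of gsc and chrd lie on opposite sides of 0, and the interval of chrd.1.S crosses 0.

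Transcripts of the pathway's own components differed by little. Beta-catenin's own transcript ctnnb1.L was at 811, 693 and 842 CPM in BIO and 814, 763 and 772 CPM in Chiron, a difference of 0.00 ± 0.09 log2 (-0.20 to 0.19), and ctnnb1.S differed by 0.00 (-0.20 to 0.21). The transcripts of the drug target gave -0.02 log2 for gsk3a.L (-0.33 to 0.28), -0.02 for gsk3a.S (-0.26 to 0.21), 0.35 for gsk3b.L (0.00 to 0.71) and 0.18 for gsk3b.S (-0.11 to 0.47). Of 67 tested pathway components 0 were called, 2 had BIO above without overlap (2.99%) and 4 had BIO below (5.97%), near the shares of all genes. The 4 included a pair of Wnt receptor genes of the Frizzled family, fzd7.L at 188, 213 and 217 CPM in BIO and 246, 231 and 238 CPM in Chiron and fzd1.L at 27.8, 29.1 and 28.5 CPM in BIO and 33.97, 36.5 and 33.6 CPM in Chiron. Their differences were -0.21 and -0.29 log2 (edgeR adjusted p = 0.947 and 0.947).

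Zygotic Wnt targets, the genes through which later Wnt signals act, were mixed. Of 24 tested members 0 were called by edgeR, 5 had BIO above without overlap (20.8%, against 5.25% of all genes tested) and 1 had it below (4.17%, against 4.4%), with a list median of -0.01 log2. Without Chiron 2 those counts were 5 and 3 (20.8% and 12.5%, against 7.66% and 6.6% of all genes). Without BIO 2 they were 5 and 2 (20.8% and 8.33%, against 15.2% and 12.9% of all genes), so the share above was nearer that of all genes. The zinc finger gene sp5.L, a direct target of beta-catenin, was at 9.24, 9.54 and 8.84 CPM in BIO and 6.11, 3.01 and 4.61 CPM in Chiron, with the groups apart. It was 2.01-fold higher in BIO (1.005 ± 0.22 log2, edgeR adjusted p = 0.387, DESeq2 adjusted p = 0.03), with controls at 2.11, 1.07 and 2.397 CPM. Its S copy was lower and uneven, at 0.582, 1.92 and 1.78 CPM in BIO and 2.23, 0.469 and 1.47 CPM in Chiron, and its interval of -1.13 to 1.22 log2 leaves a 2-fold difference possible in either direction. The Wnt receptor gene fzd10.L was at 4.29, 6.04 and 5.27 CPM in BIO and 3.88, 2.14 and 3.77 CPM in Chiron (0.67 ± 0.25 log2). The secreted Wnt inhibitor gene notum.S was at 4.95, 6.59 and 9.48 CPM in BIO and 3.82, 4.35 and 4.89 CPM in Chiron (0.69 ± 0.24 log2). Neither passed (edgeR adjusted p = 0.947 and 0.947). The ligand gene wnt8a, which drives ventrolateral Wnt signalling, overlapped for its L copy at 4.803, 3.71 and 1.995 CPM in BIO and 2.99, 3.41 and 3.28 CPM in Chiron. Its S copy had few reads, with 12, 17 and 12 counts in BIO and 8, 9 and 10 in Chiron. The groups of wnt8a.S stood apart with BIO above, at 0.873, 1.17 and 0.855 CPM in BIO and 0.509, 0.602 and 0.698 CPM in Chiron (0.68 ± 0.36 log2, edgeR adjusted p = 0.947).

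Organizer genes went both ways, and how many had BIO below turned on Chiron 2. Of 24 tested members 0 were called by edgeR, 4 had BIO above without overlap (16.7%, against 5.25% of all genes tested), 3 had BIO below (12.5%, against 4.4%), and the list median was 0.03 log2. Without Chiron 2 the members with BIO above were 4 (16.7%, against 7.66% of all genes) and those with BIO below were 9 (37.5%, against 6.6%), with a median of -0.06 log2. Without BIO 2 those above were 4 (16.7%), near the 15.2% of all genes, and those below were 6 (25%, against 12.9%). Goosecoid, the homeobox repressor of the organizer mesendoderm, had BIO above in both homeologs, and neither passed in edgeR or DESeq2. The levels of gsc.L were 2.18, 1.72 and 2.56 CPM in BIO and 1.15, 0.469 and 0.628 CPM in Chiron (1.505 ± 0.36 log2, edgeR adjusted p = 0.483, DESeq2 adjusted p = 0.37). Those of gsc.S were 2.69, 3.43 and 4.35 CPM in BIO and 2.16, 1.34 and 1.75 CPM in Chiron (0.99 ± 0.27 log2, edgeR adjusted p = 0.746, DESeq2 adjusted p = 0.761). Chordin, the secreted BMP antagonist of the organizer, had BIO below in 2 of its 3 copies. For chrd.1.L the levels were 3.49, 3.502 and 3.71 CPM in BIO and 10.8, 4.48 and 8.52 CPM in Chiron, with the BIO libraries within a narrow band and the Chiron libraries spread. Its difference was -1.15 ± 0.28 log2 (edgeR adjusted p = 0.518, DESeq2 adjusted p = 0.0401). The lower-expressed chrd.2.L was at 0.8005, 1.24 and 1.21 CPM in BIO and 4.58, 1.81 and 3.84 CPM in Chiron (-1.65 ± 0.37 log2, edgeR adjusted p = 0.421, DESeq2 adjusted p = 0.0429). The third copy, chrd.1.S, overlapped at 5.82, 5.22 and 3.92 CPM in BIO and 9.796, 3.88 and 7.89 CPM in Chiron. The BMP-like ligand gene of the organizer, admp.S, overlapped at 9.096, 12.1 and 9.76 CPM in BIO and 17.2, 9.77 and 19.1 CPM in Chiron (-0.57 ± 0.23 log2). Chiron 2 was the lowest of the 6 libraries for 14 of the 24 members (58.3%, against 16.8% of all genes tested). Without Chiron 2 the differences were -1.44 for chrd.1.L, -1.95 for chrd.2.L and 1.26 for gsc.L. Controls had 2.55, 0.401 and 1.199 CPM of chrd.1.L and 0.351, 0.0669 and 0.375 CPM of gsc.L. For gsc.S the controls were at 3.338, 0.8696 and 1.124 CPM, with control 1 within the BIO range and controls 2 and 3 below every Chiron library. The Wnt antagonist gene dkk1.S was at 3.35, 2.88 and 2.49 CPM in BIO and 2.16, 1.004 and 1.95 CPM in Chiron (0.76 ± 0.30 log2), and the notochord homeobox gene not.L was level, at 40.6, 48.96 and 43.5 CPM in BIO and 50.8, 38.7 and 44.5 CPM in Chiron (-0.26 to 0.24 log2). In whole embryos fewer cells of a type and less RNA per cell cannot be told apart, here and for the tissues that follow.

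Among the ventral genes, every member whose groups stood apart had BIO above. Of 43 tested members of the BMP and ventral list 0 were called by edgeR, 13 had every BIO library above every Chiron library (30.2%, against 5.25% of all genes tested), 0 had BIO below, and 33 had a positive estimate. Over all 18518 genes tested, 9940 had a positive estimate. The list median was 0.13 log2. DESeq2 called 7 members, each higher in BIO, against 0.101% of all genes. The 13 were copies of id3, ventx, msx1, smad6 and bambi, which BMP signalling is known to induce. Each copy was counted as its own gene, and ventx copies were the most numerous. Among the ligand genes, both copies of bmp4 overlapped, with bmp4.L at 2.47, 3.09 and 3.78 CPM in BIO and 3.88, 1.67 and 3.07 CPM in Chiron and bmp4.S at 7.495, 6.798 and 5.7 CPM in BIO and 6.74, 3.68 and 4.61 CPM in Chiron.

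The target with the smallest p was id3.L, which encodes an inhibitor of basic helix-loop-helix factors and responds directly to BMP. It was at 24.5, 28.02 and 28.9 CPM in BIO and 11.6, 7.43 and 12.8 CPM in Chiron, so that the lowest BIO library lay above the highest Chiron library. The fold was 2.55 (1.35 ± 0.18 log2), short of the threshold in the fit of 6 libraries (edgeR adjusted p = 0.0754) and past it in DESeq2 (adjusted p = 1.18e-09) and without BIO 2 (edgeR adjusted p = 0.0222). Controls had 10.98, 2.88 and 3.67 CPM, below every Chiron library in 2 of 3. Its homeolog id3.S was at 15.4, 19.7 and 18.03 CPM in BIO and 10.5, 5.15 and 9.49 CPM in Chiron (1.08 ± 0.22 log2, edgeR adjusted p = 0.291).

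The ventx genes encode homeobox repressors that BMP switches on and that keep organizer genes out of ventral tissue. Of their 8 tested copies named ventx1 or ventx2, 6 had the groups apart with BIO above, against 5.25% of all genes tested, and 0 were called by edgeR. These copies also share the embryos and could share reads. The level of ventx1.S was 11.3, 10.1 and 7.91 CPM in BIO and 4.07, 2.94 and 4.33 CPM in Chiron (1.37 ± 0.20 log2, edgeR adjusted p = 0.133). The more abundant ventx2.L was at 59.8, 57.1 and 48.2 CPM in BIO and 37.7, 26.6 and 32.04 CPM in Chiron (0.78 ± 0.13 log2, edgeR adjusted p = 0.153), with controls at 23.6, 6.82 and 8.99 CPM. The others had estimates of 1.13 for ventx1.L, 1.26 for ventx1.2.L, 0.83 for ventx1.2.S, 0.80 for ventx2.2.L, 0.48 for ventx2.2.S and 0.29 for ventx2.S. A further ventral homeobox gene, ventx3.2.L, was at 7.71, 7.897 and 6.98 CPM in BIO and 5.597, 3.28 and 4.12 CPM in Chiron (0.79 ± 0.20 log2). Every copy of ventx1 and ventx2 had a positive estimate, and the overlapping ones were ventx1.2.S and ventx2.S.

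In the list 1 member had an unadjusted p under 0.05 on the negative side, the ligand gene bmp7.2.L, at 56.4, 64.4 and 57.1 CPM in BIO and 64.2, 67.6 and 75.8 CPM in Chiron (-0.22 ± 0.09 log2, edgeR adjusted p = 0.947). The homeobox gene msx1, another BMP target, had few reads. In Chiron msx1.L had 4, 2 and 4 counts, near the limit of 3 counts, and its levels were 1.24, 1.44 and 1.28 CPM in BIO and 0.254, 0.134 and 0.279 CPM in Chiron. The estimate was 2.53 ± 0.41 log2 (edgeR adjusted p = 0.148), a size made imprecise by those counts. For msx1.S the levels were 2.33, 3.37 and 3.63 CPM in BIO and 1.84, 0.535 and 0.977 CPM in Chiron (1.46 ± 0.38 log2). The ventral GATA factor gene gata2.L ranged widely within BIO, at 0.655, 2.47 and 3.92 CPM in BIO and 0.254, 0.535 and 0.698 CPM in Chiron, and overlapped. The feedback inhibitor gene smad6.L was at 28.1, 28.8 and 27.1 CPM in BIO and 25.8, 19.2 and 21.4 CPM in Chiron (0.34 ± 0.12 log2). Further BMP feedback genes were closer, with bambi.L at 0.12 log2 (-0.08 to 0.33), the ventral inhibitor gene szl.S at 0.13 (-0.16 to 0.42) and id2.L at -0.02 (-0.20 to 0.16). In this list Chiron 2 was the lowest of the 6 libraries for 24 of 43 members (55.8%, against 16.8% of all genes tested). Without Chiron 2 the median was 0.08 log2 and 13 members still had BIO above without overlap (30.2%, against 7.66% of all genes). There 1 member had BIO below (2.33%, against 6.6%). BIO 2 was the highest library for 17 of the 43 members (39.5%, against 27.7% of all genes tested). Without BIO 2, 13 members had BIO above (30.2%, against 15.2% of all genes) and 4 had BIO below (9.3%, against 12.9%).

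**Figure D3:**
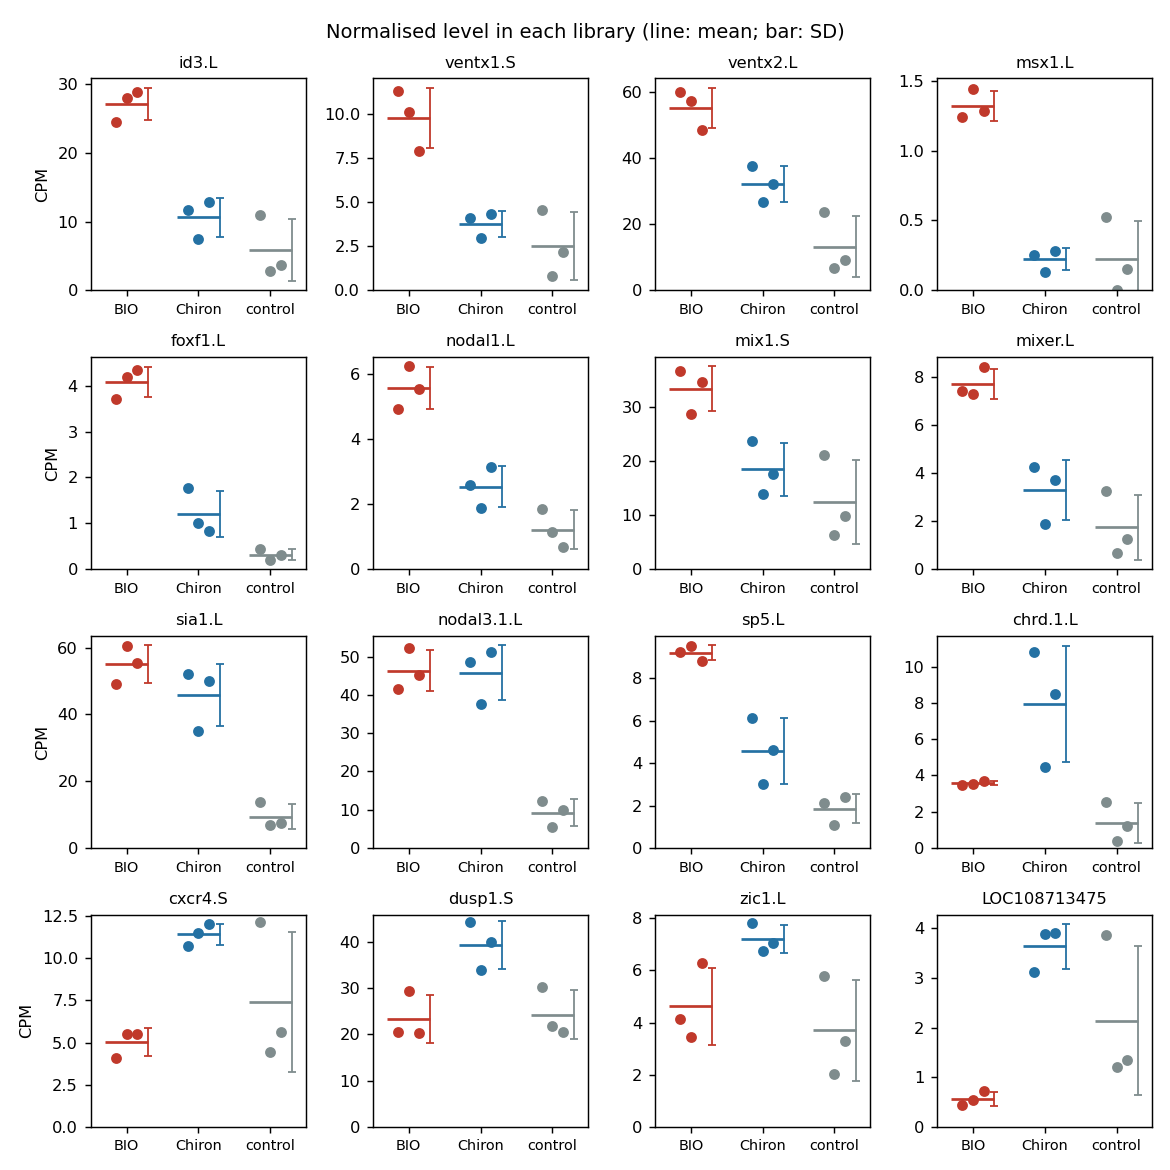
Points are normalised levels (CPM) in each of the 3 libraries of BIO, Chiron and control for 16 genes, lines are means and bars are SD, cut at 0. For id3.L, ventx1.S, foxf1.L, nodal1.L and sp5.L the BIO libraries sit above the Chiron libraries, for sia1.L and nodal3.1.L they overlap and both sit above control, and for chrd.1.L, cxcr4.S, dusp1.S, zic1.L and LOC108713475 the BIO libraries sit below.

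Mesendoderm and Nodal genes had the same direction. Of 41 tested members 0 were called by edgeR, 15 had BIO above without overlap (36.6%, against 5.25% of all genes tested), 0 had BIO below, and 36 had a positive estimate. Most of the 15 were copies of mix1, mixer and bix1, each counted as its own gene. Over all 18518 genes tested, 9940 had a positive estimate. The list median was 0.31 log2. DESeq2 called 6 members, each higher in BIO, against 0.101% of all genes. As for the ventral genes, Chiron 2 was the lowest library for 25 of the 41 (61%). Without Chiron 2 the median was 0.23 log2 and 16 members had BIO above without overlap (39%, against 7.66%), while 0 had BIO below (against 6.6% of all genes). Without BIO 2, 21 members had BIO above (51.2%, against 15.2% of all genes) and 2 had BIO below (4.88%, against 12.9%).

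Among the ligands, nodal1.L, a Nodal gene expressed in vegetal cells of the blastula, was at 4.95, 6.25 and 5.56 CPM in BIO and 2.61, 1.87 and 3.14 CPM in Chiron (1.14 ± 0.22 log2, edgeR adjusted p = 0.284, DESeq2 adjusted p = 0.0407). Controls had 1.84, 1.14 and 0.674 CPM. The related nodal2.L was at 4.803, 4.601 and 4.204 CPM in BIO and 2.16, 1.74 and 3.07 CPM in Chiron (0.97 ± 0.24 log2). The Nodal feedback inhibitor gene lefty.L overlapped, at 8.73, 8.17 and 8.48 CPM in BIO and 8.21, 2.14 and 4.54 CPM in Chiron, because Chiron 1 lay within the BIO range. Maternal vegt.L, the vegetal T-box factor upstream of the Nodal genes, differed by only 0.11 log2 (-0.04 to 0.27), although its groups stood apart with BIO above.

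The Mix and Bix homeobox genes are Nodal and VegT targets of the endoderm and mesoderm. Their levels in mix1.S were 36.7, 28.6 and 34.6 CPM in BIO and 23.7, 13.9 and 17.6 CPM in Chiron, and the difference was 0.85 ± 0.17 log2 (edgeR adjusted p = 0.291, DESeq2 adjusted p = 0.00153). For mixer.L, an endoderm-inducing factor, they were 7.42, 7.28 and 8.41 CPM in BIO and 4.26, 1.87 and 3.699 CPM in Chiron (1.23 ± 0.25 log2, edgeR adjusted p = 0.303). In both genes the lowest Chiron value came from library 2. All 9 tested copies of mix1, mixer and bix1 had the groups apart with BIO above, against 5.25% of all genes tested. These 9 were named after their values were seen. They share the embryos and could share reads, so they are not 9 separate results. The further estimates were 0.64 log2 for bix1.1.L, 0.77 for bix1.1.S, 0.81 for mix1.L, 0.92 for bix1.2.S, 1.02 for bix1.3.S, 1.05 for bix1.3.L and 1.24 for mixer.S. In control, mix1.S was at 21.2, 6.36 and 9.74 CPM and mixer.L at 3.25, 0.669 and 1.27 CPM, a wider spread (SD) than in either treated group for both genes. Against control, mix1.S gave 1.46 ± 0.47 log2 in BIO and 0.62 ± 0.46 in Chiron (edgeR adjusted p = 0.688 and 0.649).

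The endoderm factor genes sox17 were closer. The copy sox17a.S was at 11.1, 11.8 and 10.6 CPM in BIO and 7.95, 6.83 and 6.35 CPM in Chiron (0.66 ± 0.14 log2, edgeR adjusted p = 0.339). The other 3 copies overlapped, at 0.27 log2 for sox17a.L, 0.24 for sox17b.1.L and 0.31 for sox17b.1.S. The T-box gene eomes.S, which specifies mesendoderm, was at 4.88, 4.81 and 5.34 CPM in BIO and 4.198, 0.87 and 2.16 CPM in Chiron (1.04 ± 0.39 log2). Its Chiron values ran from within the control range to near the BIO level. The mesoderm T-box gene tbxt.S was low in both groups, at 1.02, 1.24 and 0.855 CPM in BIO and 1.02, 0.669 and 0.907 CPM in Chiron.

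Among ventrolateral and paraxial mesoderm genes 10 were tested, 0 called by edgeR, 5 had BIO above without overlap (50%, against 5.25% of all genes tested) and 0 below (against 4.4%), with a median of 1.04 log2. This list shares wnt8a.L, wnt8a.S and mespb.L with the mesendoderm list, and gata2.L and szl.S with the ventral list. The forkhead gene foxf1.L, a marker of lateral plate mesoderm that BMP induces, was at 3.71, 4.19 and 4.35 CPM in BIO and 1.78, 1.004 and 0.838 CPM in Chiron, with controls at 0.439, 0.201 and 0.2996 CPM. It was 3.34-fold higher in BIO than in Chiron (1.74 ± 0.29 log2, edgeR adjusted p = 0.148, DESeq2 adjusted p = 0.00236). Against control the differences were 3.72 ± 0.43 log2 in BIO (edgeR adjusted p = 0.0435) and 1.98 ± 0.45 in Chiron (adjusted p = 0.513). The sizes of both are imprecise, because the control levels lay near the 3-count limits of those libraries (0.228, 0.203 and 0.221 CPM). The apelin receptor gene aplnr.L was at 2.69, 2.27 and 2.28 CPM in BIO and 0.8905, 0.669 and 0.977 CPM in Chiron (1.503 ± 0.28 log2, edgeR adjusted p = 0.258). The paraxial bHLH genes mespa.L and mespa.S were low, with estimates of 1.16 and 1.53 log2. The muscle factor gene myod1.L had the opposite sign, at 1.75, 1.51 and 1.57 CPM in BIO and 3.05, 2.88 and 1.396 CPM in Chiron. Summed over the list the levels were 35.95, 35.98 and 36.5 CPM in BIO and 29.96, 23.6 and 23.2 CPM in Chiron, against 50.1, 28.1 and 27.8 CPM in control. A large part of each sum was szl.S, at 16.2, 14.8 and 16.6 CPM in BIO and 16.9, 13.3 and 13.2 CPM in Chiron. In control szl.S was at 32.3, 19.7 and 18.6 CPM, so the sums do not describe the other members. The list median ran from 0.73 without Chiron 2 to 1.46 without Chiron 1. Without BIO 2, 5 members had BIO above without overlap (50%, against 15.2% of all genes).

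**Figure D4:**
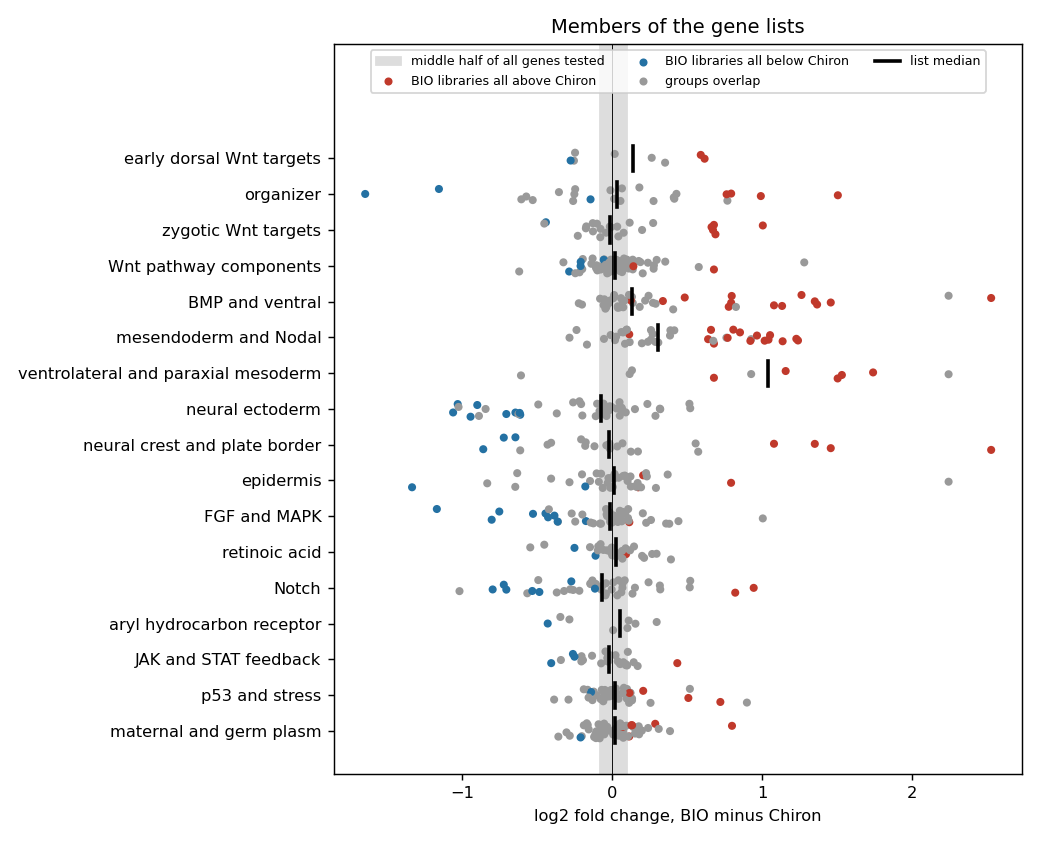
Each point is a tested member of a gene list, placed by its log2 fold change (BIO minus Chiron) on the x axis, with black bars for list medians and a grey band from the lower to the upper quartile of all genes tested. Red points, with every BIO library above every Chiron library, gather in the ventral, mesendoderm and ventrolateral lists (13, 15 and 5 members). Blue points, with BIO below, gather in the neural, FGF and Notch lists (8, 9 and 7 members).

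Neural genes leaned the other way. Of 44 tested members of the neural ectoderm list 0 were called by edgeR or DESeq2, 0 had BIO above without overlap and 8 had BIO below (18.2%, against 4.4% of all genes tested). A negative estimate was found for 31, against 8578 of all 18518 genes tested. On that side 10 had an unadjusted p under 0.05, against 2.48% of all genes. The zinc finger gene zic1.L, an early gene of the neural plate, was at 4.15, 3.43 and 6.27 CPM in BIO and 7.82, 6.76 and 7.05 CPM in Chiron (-0.64 ± 0.22 log2, edgeR adjusted p = 0.947). Its homeolog zic1.S overlapped, at 11.4, 14.2 and 17.7 CPM in BIO and 20.4, 12.4 and 17.2 CPM in Chiron. The neural progenitor factor gene sox2.S was at 2.401, 3.02 and 2.07 CPM in BIO and 3.82, 3.55 and 4.12 CPM in Chiron (-0.61 ± 0.22 log2). Larger estimates came from the zinc finger gene sall1.S at 2.47, 2.47 and 1.64 CPM in BIO and 5.15, 2.48 and 6.14 CPM in Chiron (-1.06 ± 0.33 log2) and the LIM homeobox gene lhx5.L, a forebrain factor, at 2.11, 1.24 and 2.85 CPM in BIO and 4.898, 2.88 and 4.12 CPM in Chiron (-0.94 ± 0.31 log2). The POU factor genes pou3f2.L and pou3f2.S had -1.03 and -0.90 log2, each with the groups apart, as were irx1.S (-0.62 log2) and the Notch target gene hes5.8.S (-0.70 log2). BIO 2 was the lowest library for 18 of the 44 members (40.9%, against 24.7% of all genes tested). Without BIO 2 the members with BIO below were 13 (29.5%, against 12.9% of all genes) and those with BIO above 3 (6.82%, against 15.2%). Without Chiron 2 they were 13 and 0 (29.5% and 0%, against 6.6% and 7.66%). The abundant pan-neural sox3.S differed by -0.06 log2 (-0.23 to 0.12). The list median of -0.07 log2 ran from -0.14 without BIO 2 to -0.06 without Chiron 1.

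In the neural crest and plate border list, which shares id3, msx1 and zic1 with the lists above, 4 of 23 members had BIO above without overlap (17.4%, against 5.25% of all genes tested), all copies of id3 and msx1, and 3 had it below (13%, against 4.4%). Without Chiron 2 those below were 6 (26.1%, against 6.6% of all genes). Without BIO 2, 5 members had BIO above (21.7%, against 15.2% of all genes) and 4 had BIO below (17.4%, against 12.9%). The 3 below with all 6 libraries were zic1.L, sox9.S at 1.16, 1.65 and 0.998 CPM in BIO and 2.16, 2.14 and 2.65 CPM in Chiron and hes4.L at 2.33, 2.95 and 2.14 CPM in BIO and 4.26, 3.68 and 4.33 CPM in Chiron. The ectoderm factor gene tfap2a.L was at 10.2, 10.4 and 9.76 CPM in BIO and 11.6, 6.49 and 9.702 CPM in Chiron, a difference of 0.13 log2 (-0.30 to 0.55), while both compounds stood above the controls at 2.196, 1.204 and 0.824 CPM. Against control it was 2.88 ± 0.35 log2 in BIO (edgeR adjusted p = 0.0435) and 2.76 ± 0.35 in Chiron (adjusted p = 0.0874). The homeolog tfap2a.S had the opposite sign and overlapped, at 4.876, 6.73 and 5.273 CPM in BIO and 9.096, 5.956 and 7.329 CPM in Chiron. Its difference between the compounds was -0.41 ± 0.20 log2 (-0.85 to 0.04). Of 40 epidermal members 3 had BIO above (7.5%) and 2 below (5%), near the shares of all genes. Without Chiron 2 those below were 7 (17.5%, against 6.6%). Of the 2 below with all 6 libraries, krt70.S, a keratin gene, was at 0.8005, 1.51 and 1.14 CPM in BIO and 2.73, 2.08 and 3.98 CPM in Chiron (-1.33 ± 0.33 log2, edgeR adjusted p = 0.553). The epidermal barrier factor gene grhl3.L overlapped through BIO 2, at 5.603, 11.4 and 4.56 CPM in BIO and 14.4, 9.64 and 14.5 CPM in Chiron.

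Genes of the FGF and MAPK list with BIO below were mostly immediate early and feedback genes. Of 47 tested, 0 were called by edgeR, 1 had BIO above without overlap (2.13%, against 5.25% of all genes) and 9 had BIO below (19.1%, against 4.4%). The 9 were dusp1.L, dusp1.S, dusp5.L, dusp5.S, spry1.S, egr1.S, fos.L, junb.L and ier2.L. The list median was -0.02 log2. Without BIO 2, 11 members had BIO below (23.4%, against 12.9% of all genes) and 5 had BIO above (10.6%, against 15.2%). Without Chiron 2 those counts were 10 and 1 (21.3% and 2.13%, against 6.6% and 7.66%). The MAP kinase phosphatase gene dusp1, itself an early response gene, was lower in BIO in both copies. For dusp1.S the levels were 20.4, 29.3 and 20.2 CPM in BIO and 44.1, 33.9 and 39.9 CPM in Chiron (-0.75 ± 0.15 log2, edgeR adjusted p = 0.291, DESeq2 adjusted p = 0.00169). For dusp1.L they were 10.2, 17.4 and 15.2 CPM in BIO and 23.7, 24.1 and 26.9 CPM in Chiron (-0.80 ± 0.17 log2, edgeR adjusted p = 0.313, DESeq2 adjusted p = 0.00322). Without BIO 2 dusp1.S passed in edgeR as well, at -0.95 log2 (adjusted p = 0.0176). Controls had 30.3, 21.8 and 20.5 CPM of dusp1.S, close to BIO. For dusp1.L the controls were at 32.86, 17.86 and 19.55 CPM. Control 1 lay above every Chiron library, and controls 2 and 3 lay between the BIO and Chiron ranges. The means of dusp1.L were 23.4 CPM in control, 14.25 in BIO and 24.9 in Chiron, the control mean being raised by control 1. The ERK phosphatase gene dusp5.L was at 5.46, 5.42 and 5.63 CPM in BIO and 8.71, 6.16 and 8.93 CPM in Chiron (-0.53 ± 0.18 log2), and dusp5.S at 3.42, 3.16 and 3.21 CPM in BIO and 4.07, 4.28 and 4.82 CPM in Chiron (-0.43 ± 0.18 log2). The FGF antagonist gene spry1.S was at 6.99, 5.63 and 7.55 CPM in BIO and 9.796, 9.302 and 8.31 CPM in Chiron (-0.44 ± 0.16 log2). Its homeolog spry1.L overlapped and was level at -0.02 log2 (-0.365 to 0.32). The immediate early gene egr1.S was at 0.291, 0.755 and 0.142 CPM in BIO and 1.02, 0.803 and 0.907 CPM in Chiron. In BIO egr1.S had only 4, 11 and 2 counts, near the limit of 3 counts. The FGF target gene etv4.L was level at -0.01 log2 (-0.19 to 0.17).

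Outside the lists, the chemokine receptor gene cxcr4, which guides migrating cells, was lower in BIO in both homeologs. The levels of cxcr4.S were 4.08, 5.49 and 5.49 CPM in BIO and 10.8, 11.5 and 12.01 CPM in Chiron, with the highest BIO library below the lowest Chiron library. The difference was -1.18 ± 0.16 log2, or 2.27-fold lower (edgeR adjusted p = 0.0756, DESeq2 adjusted p = 4.67e-05). For cxcr4.L the levels were 12.7, 21.7 and 15.2 CPM in BIO and 33.9, 32.9 and 36.1 CPM in Chiron (-1.05 ± 0.16 log2, edgeR adjusted p = 0.148). Without BIO 2, whose cxcr4.L level was the highest in its group, the difference in cxcr4.L was -1.296 log2 (edgeR adjusted p = 0.00184). Controls had 27.1, 12.04 and 13.7 CPM of cxcr4.L.

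Both copies of rasd1, a small GTPase gene that responds to glucocorticoids in mammals, were also lower in BIO. The levels of rasd1.S were 3.06, 5.63 and 3.21 CPM in BIO and 8.46, 11.4 and 10.96 CPM in Chiron (-1.37 ± 0.24 log2, edgeR adjusted p = 0.157), and those of rasd1.L 6.55, 10.4 and 9.48 CPM in BIO and 14.6, 14.6 and 15.3 CPM in Chiron (-0.75 ± 0.17 log2). The Ras-like gene rasl11b.L was at 8.44, 6.94 and 9.33 CPM in BIO and 23.4, 11.8 and 18.1 CPM in Chiron (-1.11 ± 0.23 log2), and xmc.L at 1.89, 3.16 and 1.43 CPM in BIO and 7.25, 4.15 and 8.52 CPM in Chiron (-1.61 ± 0.33 log2), with controls at 2.11, 0.335 and 0.899 CPM. The zinc finger gene znf750.L, known in mammals as an epidermal differentiation factor, was at 3.42, 4.88 and 2.21 CPM in BIO and 8.27, 7.43 and 9.14 CPM in Chiron (-1.24 ± 0.25 log2). Without BIO 2, rasd1.S and znf750.L passed (edgeR adjusted p = 0.0119 and 0.0242). Also called then were both copies of cnot4, a subunit gene of the CCR4-NOT RNA-degrading complex, at 0.54 log2 for cnot4.L and 0.43 for cnot4.S. In those genes BIO 2 stood apart, with cnot4.L at 143, 71.97 and 146 CPM in BIO and 106, 94.4 and 95.7 CPM in Chiron.

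Further genes were called by DESeq2 and not by the edgeR fit of the 6 libraries. The gene of claspin, a replication checkpoint adaptor, clspn.S, was at 151, 148 and 150.5 CPM in BIO and 186, 186 and 186 CPM in Chiron, a small and even difference of -0.31 ± 0.07 log2 (DESeq2 adjusted p = 0.0401, edgeR adjusted p = 0.312). The hyaluronan synthase gene has2.L was at 16.6, 11.7 and 10.3 CPM in BIO and 8.52, 6.49 and 6.21 CPM in Chiron (0.86 ± 0.20 log2, DESeq2 adjusted p = 0.0417). The amine oxidase gene aoc3.S was at 20.3, 21.6 and 26.01 CPM in BIO and 25.3, 47.1 and 46.97 CPM in Chiron, where Chiron 1 lay within the BIO range (-0.81 ± 0.21 log2, DESeq2 adjusted p = 0.0122). The orphan receptor gene gprc5cl2.S was at 2.26, 5.22 and 1.92 CPM in BIO and 7.63, 6.62 and 7.82 CPM in Chiron (-1.22 ± 0.31 log2). On the other side the unnamed LOC121401725 was at 8.51, 8.86 and 10.6 CPM in BIO and 5.22, 3.68 and 3.91 CPM in Chiron (1.12 ± 0.18 log2). LOC503674, again with BIO below, was at 13.5, 19.6 and 12.9 CPM in BIO and 25.6, 23.96 and 31.1 CPM in Chiron (-0.80 ± 0.17 log2).

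A few genes followed particular libraries. The protease inhibitor gene cst3.L was at 41.3, 344 and 49.9 CPM in BIO and 76.7, 81.5 and 104 CPM in Chiron, so that the estimate of 0.73 log2 over the 6 libraries became -0.94 without BIO 2 (edgeR adjusted p = 0.0228). The mitochondrially encoded ATP8 was at 0.728, 2.54 and 0.998 CPM in BIO and 1.21, 12.9 and 18.98 CPM in Chiron, and its estimate of -2.93 ± 0.79 log2 rested on Chiron 2 and 3. The median over 12 mitochondrially encoded genes was -0.01 log2 with all 6 libraries, 0.35 without BIO 1 and -0.91 without BIO 2. Without BIO 2 all 12 had BIO below without overlap (100%, against 12.9% of all genes). Ribosomal protein genes had a median of 0.18 log2 over 153 members. Of these, 131 were positive, against 9940 of all 18518 genes tested. Their median was 0.03 without BIO 2, whose ribosomal share of 0.314% was the highest. The other 5 libraries had 0.223% to 0.264%.

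In the aryl hydrocarbon receptor list, which bears on the indirubin structure of BIO, no member passed. Of 8 tested members 0 were called, 0 had BIO above without overlap and 1 had BIO below (12.5%, against 4.4% of all genes tested). The detoxifying enzyme gene cyp1a1.S, the classical induced target of the receptor in mammals, was at 32.02, 35.7 and 32.9 CPM in BIO and 33.01, 43.8 and 45.9 CPM in Chiron, against 36.8, 34.8 and 31.2 CPM in control. Its estimate was -0.28 ± 0.12 log2 (-0.56 to -0.01). For tiparp.L, a feedback repressor gene of the receptor, the levels were 0.582, 2.06 and 1.21 CPM in BIO and 1.53, 2.01 and 1.396 CPM in Chiron, and the interval of -1.24 to 0.55 was wide. The 1 member with BIO below was ahr.S, the receptor's own gene, at 1.67, 1.17 and 1.43 CPM in BIO and 1.78, 1.87 and 2.09 CPM in Chiron (-0.43 ± 0.27 log2). A level 2-fold higher in BIO than in Chiron lay outside the unadjusted interval for cyp1a1.S and for tiparp.L. Whether either compound acted on the receptor was not tested.

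Of 42 tested Notch members 0 were called, 2 had BIO above without overlap (4.76%, against 5.25% of all genes tested) and 7 had BIO below (16.7%, against 4.4%). Those below were 12 without BIO 2 (28.6%, against 12.9% of all genes) and 10 without Chiron 2 (23.8%, against 6.6%). The 2 above were genes of Delta ligands, dlc.L at 5.09, 3.296 and 3.99 CPM in BIO and 2.099, 1.61 and 2.72 CPM in Chiron and dll1.S at 3.35, 2.13 and 2.56 CPM in BIO and 1.78, 0.937 and 1.81 CPM in Chiron. Those below with all 6 libraries included hairy and enhancer of split repressor genes, such as hes1.L at 6.404, 8.38 and 5.77 CPM in BIO and 12.02, 8.77 and 8.93 CPM in Chiron and its homeolog hes1.S at 0.873, 0.618 and 1.496 CPM in BIO and 1.84, 1.81 and 1.54 CPM in Chiron. For the lists that follow, the shares to read against are again 5.25% of all genes above and 4.4% below. In the retinoic acid list 1 of 27 had BIO above (3.7%) and 2 below (7.41%), and the retinoic acid degrading enzyme gene cyp26a1.L was level at 0.07 log2 (-0.21 to 0.34). Its homeolog cyp26a1.S leaned lower in BIO, with overlap, at 10.99, 17.58 and 15.46 CPM in BIO and 27.35, 14.05 and 22.89 CPM in Chiron. The difference in cyp26a1.S was -0.55 ± 0.23 log2 (-1.06 to -0.03, edgeR adjusted p = 0.947). In the JAK and STAT list 1 of 28 had BIO above (3.57%) and 3 below (10.7%). The p53 and stress list had 4 of 47 above (8.51%) and 1 below (2.13%), with the stress gene gadd45a.L at 8.44, 12.4 and 9.48 CPM in BIO and 6.55, 3.88 and 7.96 CPM in Chiron (0.72 ± 0.24 log2), the cell cycle list 4 of 85 above (4.71%) and 0 below, and the maternal and germ plasm list 6 of 60 above (10%) and 1 below (1.67%). None of these had a member called by edgeR, and their medians lay between -0.07 and 0.04 log2.

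The same estimates were also counted by homeolog pair, since the L and S copies of a gene are counted separately although they share the embryos. Over all 5138 pairs tested, both copies had a positive estimate in 35.8%, both a negative one in 28.1%, and opposite signs in 36.1%. In the mesendoderm list both copies were positive in 12 of 14 pairs (85.7%), and in the ventral list in 14 of 20 (70%). In the neural list both were negative in 10 of 18 pairs (55.6%) and both positive in 1 (5.56%). These shares are a description, because reads of near-identical copies can be assigned to either. They also reuse the signs already counted for each list, and a list that leans to one side gives more same-sign pairs whatever the pairing.

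**Figure D5:**
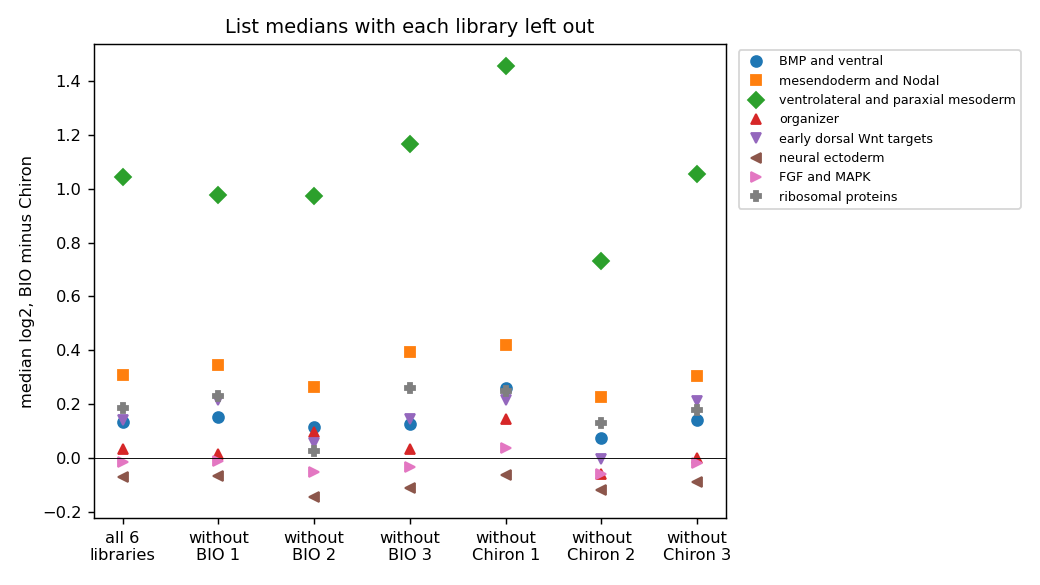
The median log2 fold change (BIO minus Chiron) of 8 gene lists is shown with all 6 libraries and with each library left out in turn. The ventral, mesendoderm and ventrolateral medians stay above 0 and the neural median below 0 in all 6 left-out fits, while the early dorsal and organizer medians come close to or cross 0 without Chiron 2, and the ribosomal median drops to 0.03 without BIO 2.

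Leaving out libraries set the firmness of these directions. The mesendoderm median ran from 0.23 without Chiron 2 to 0.42 without Chiron 1, and the ventral median from 0.08 to 0.26 for the same pair. The early dorsal median was -0.01 without Chiron 2 and 0.22 without Chiron 1, and the organizer median -0.06 and 0.14. Chiron 2 had the lowest summed CPM of the Chiron libraries in each of these 4 lists. What part this spread has in the differences was not tested.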

How the data were processed

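Strand-specific poly-A RNA sequencing was done on 60 ng of total RNA a library, from 3 embryos each, per the labels' protocols. The deposited file was a single table of raw read counts, whole numbers for 18892 genes in 12 libraries. STAR 2.5.2b and edgeR are named in the submitters' processing notes without a role, and the genome build, annotation and counting tool are unstated in the sources used here. No sequences or coordinates were used, and gene types came from RefSeq, whose table held 17475 of the names as symbols.

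Counts of the 3 BIO and 3 Chiron libraries were tested in R 4.3.3 with the edgeR 4.0.16 quasi-likelihood test, after filterByExpr (374 genes removed) and TMM scaling. Calls needed a Benjamini-Hochberg adjusted p under 0.05 over all 18518 genes tested, with no minimum fold. The script was tested on simulated data. CPM of control libraries used the scale of the 6 libraries, and differences from control came from 1 fit of all 12. Groups were called apart, or without overlap, where every library of one lay above every library of the other. Intervals are at 95% and unadjusted. Totals of 13666222 to 15486533 counts set the precision.

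The members, the 21 gene lists and the tests were chosen with earlier results of these data known. List members were matched without the L, S or tandem copy suffix, and each copy counts as its own gene. Named genes were called symbols with at least 1 CPM and groups apart, up to 2 called members a list, a set of pathway genes in every copy, and the 5 symbols with the smallest p where a direction had no call. This gave 44, and 84 more were named after their values were seen. Alternatives were DESeq2 1.42.0, other scalings and filters, a mitochondrial covariate, a replicate block, summed homeologs, all 12 libraries, each library left out, and, chosen after seeing the data, limma-voom (limma 3.58.1), robust edgeR and the counts of groups apart without BIO 2 or Chiron 2.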

Additional observations from a re-analysis of the deposited data

How the results depend on the processing

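The count of genes lower in BIO, 2 in the reported fit, was 2 with RLE scaling, library totals only, no filter on low counts, mitochondrially encoded genes removed and homeologs summed (where 0 were higher in each). It was 0 in 1 fit of all 12 libraries and with limma-voom, 3 with robust edgeR, 8 with the mitochondrial share as covariate and 29 with DESeq2. The count of genes higher in BIO, 0 in the reported fit, was 1 with robust edgeR, 2 with the mitochondrial share as covariate and 19 with DESeq2. With 1 library left out, lower genes ran from 0 to 11 and higher genes from 0 to 3, the upper ends without BIO 2. The 2 genes called lower were called again wherever at least 2 lower genes were counted.

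With the replicate number as a block, 1 gene was higher (id3.L) and 2 lower. Whether the numbers pair the samples is unstated. Same-numbered libraries correlated at -0.015, -0.0788 and -0.047 in their deviations from the group means. Of the 3 BIO libraries, 0 correlated best with their own number. With so few libraries, these values cannot show whether same-numbered libraries shared a clutch.

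Of 128 named genes, 114 kept their sign in every setting run on them (homeologs summed gives none). Those that changed sign lay near 0, apart from cst3.L. With 1 library left out cst3.L ran from -0.94 to 1.17 log2, wnt8a.L from -0.17 to 0.40, nodal3.1.L from -0.11 to 0.10, tfap2a.L from -0.0801 to 0.32, cyp26a1.L from -0.0208 to 0.20, sp5.S from -0.37 to 0.58 and not.L from -0.11 to 0.0929. The range for bmp4.L was -0.17 to 0.40, for id2.L -0.0946 to 0.0416 and for etv4.L -0.0594 to 0.053. For gsk3a.L it was -0.19 to 0.10, for gsk3a.S -0.12 to 0.0679, for ctnnb1.L -0.0581 to 0.0775 and for ctnnb1.S -0.0632 to 0.0918. Values of ctnnb1.S were also negative in the fit of 12 libraries (-0.0047), with DESeq2 (-0.0021), RLE scaling (-0.0021), the mitochondrial covariate (-0.0016), the replicate block (-0.0041) and limma-voom (-0.0045), and sp5.S was -0.0072 with the covariate. The cause of the differences between tools was not tested. Genes under about 1 CPM are limited by depth, and doses and clutches by what the sources give.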
